A study of Mus musculus with 75 samples.

Results

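Nucleotide synthesis enzymes supply the DNA precursors that a cell needs before it can divide. The 9 genes described here, Rrm1, Rrm2, Tyms, Tk1, Dut, Dck, Ctps, Shmt1 and Mthfd2, were given as a list of deoxynucleotide and folate enzyme genes, chosen by name, and are 9 of the 24984 genes in the count files. All 9 passed the filter on low counts in each of the 5 RNA-seq experiments. The question was how their transcripts changed as mouse skin fibroblasts were passaged into replicative senescence (RS), and when 3 transcription factors, E2f4, Tead1 and Atf3, were raised or lowered.

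The cells were mouse skin fibroblasts. Untreated cells of 2-month-old female C57BL/6 mice were collected at passages P1, P3, P5 and P7, with 4 RNA-seq libraries a passage. ATAC-seq samples were of the same passages, 4 at P1 and 3 at the later ones. E2f4 overexpression (E2f4_OE, 2 libraries) used a doxycycline-inducible lentivirus in P4 cells, with E2f4 labelled by EGFP. It was set against control cells that overexpressed EGFP (vector, 2 libraries). Knockdown used lentiviral hairpins, which were sh1 for E2f4 (3 libraries), sh3 and sh4 for Tead1 (3 each) and sh5 and sh6 for Atf3 (3 each), each experiment with 3 libraries of a non-targeting hairpin (nt). E2f4 was knocked down in P3 cells and Atf3 in pre-senescent cells. All intervention cells, controls included, carried a lentiviral vector. They came from newborn or 2-month-old mice, and which library came from which is not stated in the sources used here. Sex and strain, too, are stated only for the 2-month-old mice. The 2 Tead1 hairpins target nearly the same stretch of the transcript, so they are not independent tests of Tead1. No source says that replicates came from separate animals, and p-values then measure only the spread between these samples.

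Ribonucleotide reductase, built from the large subunit Rrm1 and the small subunit Rrm2, turns ribonucleotides into deoxyribonucleotides, and Rrm2 is known to be made in S phase. Thymidylate is then made de novo by Tyms, from dUMP and a folate-carried methyl group, while Dut removes dUTP and yields the dUMP that Tyms uses. Salvage enzymes such as Tk1 and Dck instead rescue deoxynucleosides. Ctps makes CTP from UTP, and Shmt1 and Mthfd2 belong to the folate cycle, Shmt1 in the cytosol and Mthfd2 in mitochondria. Many of these genes are textbook targets of the E2F family, of which E2F4 is usually described as a repressor in resting cells.

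Values are CPM, counts per 1000000 counts of a library after TMM scaling of library sizes. The libraries held 9147324 to 27552949 counts. A gene was said to rise or fall where edgeR's quasi-likelihood test gave an adjusted p under 0.05 over all genes tested, and was called where the change also exceeded 2-fold, thresholds taken from the study's methods. Fold changes are given on the log2 scale with their standard error (SE). The targeted genes were checked first. E2f4 was at 35.5 and 47.5 CPM in the vector libraries and 1118 and 1180 in E2f4_OE, a count that includes the transgene, and it lay at 59.6 to 60.8 CPM with nt and fell to 20.4 to 21.8 with sh1. Tead1 fell with both hairpins, by log2 fold changes of -0.96 for sh3 and -0.78 for sh4. Atf3, at only 2.77 to 3.31 CPM with nt, fell with sh5 by a log2 fold change of -1.14 (adjusted p = 0.0447), whereas its change with sh6 of -0.79 did not pass (adjusted p = 0.114). The paper also reports the knockdowns by RT-qPCR and immunoblot.

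Markers of other cells were present at P1. The summed CPM of 8 macrophage markers was 298 to 458 at P1, 41.99 to 58.99 at P3 and 33.6 to 51.2 at P7. At P7 this sum was mostly Csf1r and Lyz2, at means of 21.8 and 16.7 CPM (20.5 and 282 at P1). The other macrophage markers had means of at most 1.83 CPM at P7. Lists of 6 keratinocyte and 6 skeletal muscle markers reached 356 and 139 CPM at P1, and at most 7.72 and 3.15 at P7, where 2 markers of each list were at 0 in every library. The summed endothelial and adipocyte markers were likewise highest at P1 (126 to 132 and 44.6 to 58.4 CPM), and the 4 Schwann cell markers lay between 33.4 and 126 CPM over all passages. The adipocyte sum at P1 was almost all Fabp4 (mean 50.5 CPM), with Adipoq at 0.051, Plin1 at 0.067 and Lep at 0. The 8 fibroblast markers summed to 19161 CPM or more at every passage. In the intervention libraries the macrophage, keratinocyte and muscle sums were at most 23.5, 6.99 and 9.39 CPM. The part of the other cells in the falls from P1 was not tested. P7 is therefore also compared with P3, where the sums of the other cell types, except Schwann cells, were below P1. In bulk samples, fewer cells that express a gene and less RNA per cell cannot be told apart.

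With passaging, 7 of the 9 genes fell from P1 to P7 and 6 of them, Tk1, Shmt1, Rrm1, Dck, Tyms and Rrm2, fell more than 2-fold. Among all 13442 genes tested, 31.9% fell and 13.3% were called lower. Ctps rose slightly, as 30.5% of all genes did, and Mthfd2 was the gene that did not pass. The median log2 fold change of the 9 genes was -1.60, beside -0.010 for all genes. In 8 of the 9 genes the P1 and P7 libraries did not overlap, compared with 30.3% of all genes that were lower in every P7 library and 27.1% that were higher.

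**Figure D1:**
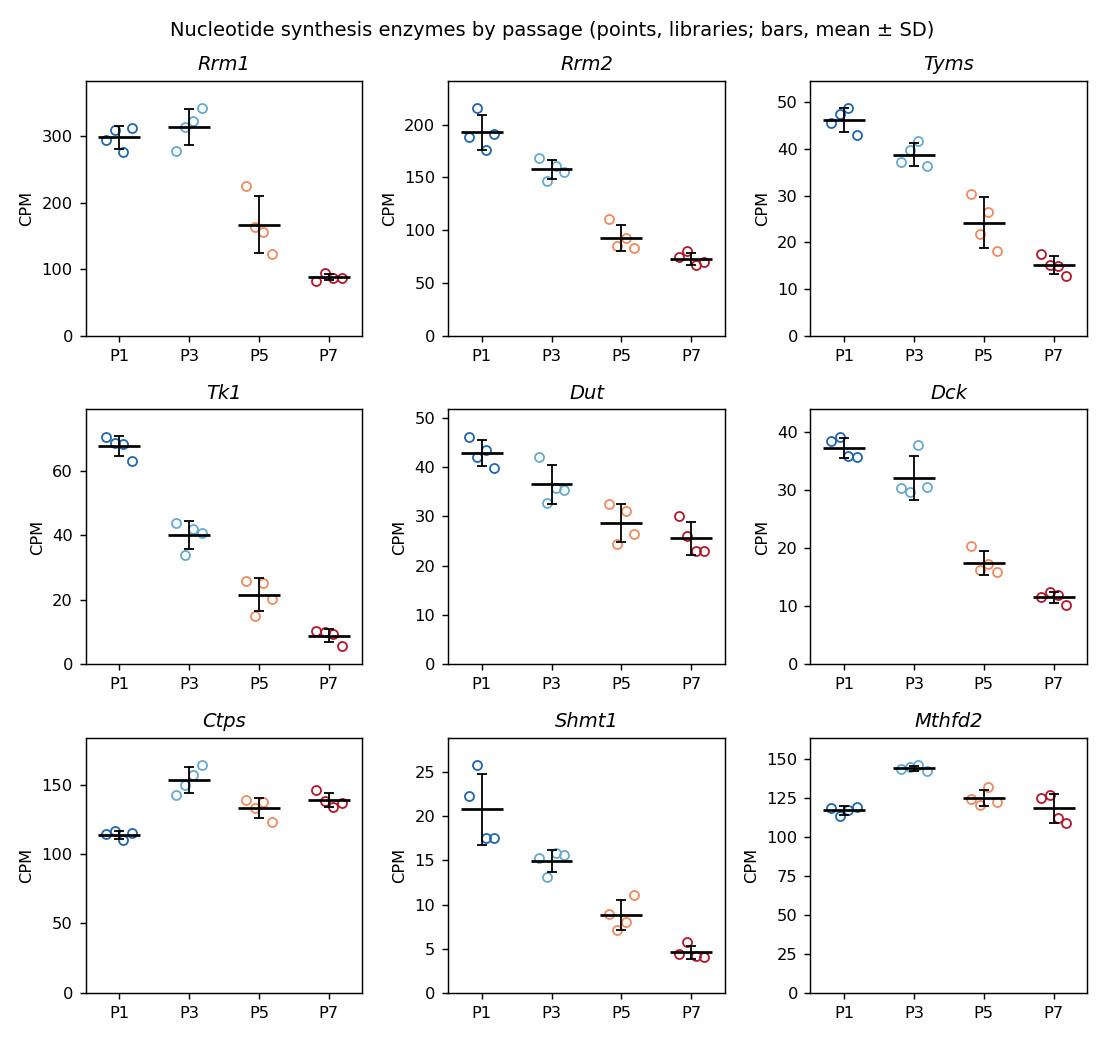
CPM of the 9 genes by passage, with a panel for each gene and its own linear axis from 0; open points are the 4 libraries of a passage and bars give the mean ± SD. Tk1 falls from 63.1 to 70.5 CPM at P1 to 5.79 to 10.4 at P7, while Mthfd2 stays between 108.7 and 145.9.

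Both subunits of ribonucleotide reductase fell. Rrm1 (chr7:102441695-102469771, plus strand, GRCm38 as all positions here) had 295, 310.1, 276 and 313 CPM in the P1 libraries and 83.3, 94.9, 87.7 and 87.4 at P7. Every P7 library was thus far below every P1 library, a log2 fold change of -1.76 (SE 0.13, adjusted p = 7.58e-10), or 3.38-fold lower. The fall came late, since Rrm1 was at 278 to 342 CPM at P3, where it did not differ detectably from P1 (adjusted p = 0.685), and then fell, by log2 fold changes of -0.91 to P5 and -0.92 to P7. At P5 the libraries were spread, from 123 to 225 CPM, with replicate 1 the highest. Rrm2 (chr12:24708254-24714146, plus strand) went from 188, 215, 176 and 191 CPM at P1 to 74.6, 80.5, 66.9 and 69.99 at P7, again without overlap. The log2 fold change was -1.40 (SE 0.10, adjusted p = 2.64e-10), or 2.64-fold lower. It was at 146 to 168 CPM at P3 and 83.7 to 110.4 at P5. Rrm2 thus fell at every step, with log2 fold changes of -0.29 to P3, -0.76 to P5 and -0.35 to P7. The step to P3 did not pass without replicate 2 of P1 or replicate 2 or 4 of P3 (adjusted p of 0.0574 to 0.089 by edgeR). The step to P7 did not pass without replicate 1 of P5 or replicate 3 of P7 (edgeR adjusted p = 0.0712 and 0.0549). It was also lost in a fit of the P5 and P7 libraries alone (edgeR adjusted p = 0.0769).

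The enzymes of thymidylate synthesis fell to different extents. Tyms (chr5:30038546-30073645, minus strand) was at 45.5, 47.4, 48.7 and 42.9 CPM at P1 and at 17.6, 15.2, 14.99 and 12.9 at P7, with no overlap, a log2 fold change of -1.60 (SE 0.13, adjusted p = 3.47e-09). An annotated transcribed pseudogene, Tyms-ps on chromosome 10, may share reads with Tyms, which makes its counts uncertain. At P3 Tyms was at 36.4 to 41.7 CPM and at P5 at 18.1 to 30.4. Its change from P1 to P3 did not pass (adjusted p = 0.128), and both later steps did, with log2 fold changes of -0.68 and -0.67. Dut (chr2:125247248-125259049, plus strand) fell least of the 7, with a log2 fold change of -0.74 (SE 0.11, adjusted p = 1.09e-05), from 46.1, 42.00, 43.3 and 39.7 to 30.1, 26.1, 23.1 and 23.01 CPM. It lay at 32.8 to 41.9 CPM at P3 and at 24.4 to 32.6 at P5. Its P7 libraries lay below all P1 libraries but overlapped those at P5, and its change from P5 to P7 did not pass (adjusted p = 0.35).

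Shmt1, the cytosolic hydroxymethyltransferase that turns serine and tetrahydrofolate into glycine and methylene-tetrahydrofolate, fell more than any other of the 9 genes except Tk1. At chr11:60788897-60811265 (minus strand), it had 22.3, 25.8, 17.5 and 17.6 CPM at P1 and 4.43, 5.71, 4.23 and 4.08 at P7. Its P1 libraries were spread, but each was far above the P7 libraries, a log2 fold change of -2.17 (SE 0.17, adjusted p = 1.27e-09), or 4.50-fold lower. It was at 13.1 to 15.8 CPM at P3 and 7.12 to 11.1 at P5, and fell at each step, by log2 fold changes of -0.47, -0.76 and -0.93. The step to P3 did not pass without replicate 1 or 2 of P1 or replicate 2 of P3 (adjusted p of 0.0576 to 0.0927 by edgeR). The counts behind the P7 values were only 55 to 74 per library.

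Salvage kinases fell as well. Tk1, the cytosolic thymidine kinase (chr11:117815519-117826087, minus strand), was the gene with the largest change among the 9. It had 70.5, 68.5, 68.2 and 63.1 CPM at P1, 43.8, 33.7, 41.8 and 40.6 at P3, 25.9, 14.9, 25.1 and 20.3 at P5 and 10.4, 10.03, 9.53 and 5.79 at P7. No passage overlapped the next, and the log2 fold change from P1 to P7 was -2.92 (SE 0.17, adjusted p = 3.17e-11), or 7.56-fold lower. By step, its log2 fold changes were -0.76, -0.89 and -1.27. Tk1 shares 88 of its 1369 exonic bases (6.43%) with Afmid on the opposite strand. Strand was not used in counting, so reads over these bases cannot be told apart, which makes the Tk1 counts less certain. Dck, the deoxycytidine kinase (chr5:88765013-88783277, plus strand), went from 38.4, 39.1, 35.8 and 35.7 to 11.5, 12.4, 11.9 and 10.2 CPM, a log2 fold change of -1.69 (SE 0.11, adjusted p = 1.03e-10) with no overlap. At P3, replicate 3 of Dck stood above the others, at 37.7 CPM against 29.6 to 30.5. The main steps of Dck were those to P5 (-0.88) and to P7 (-0.60).

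Ctps and Mthfd2 did not follow the other genes. CTP synthase, Ctps (chr4:120539868-120570276, minus strand), was at 114, 116, 109.7 and 115 CPM at P1 and 146, 138, 134 and 137 at P7. All P7 libraries exceeded all P1 libraries, a log2 fold change of 0.29 (SE 0.07, adjusted p = 0.00155), or 1.22-fold higher. Ctps was highest at P3, at 142 to 164 CPM, with a log2 fold change of 0.43 from P1 (adjusted p = 0.000103), and it fell again to P5, with a log2 fold change of -0.20 (adjusted p = 0.035), to 123 to 139 CPM. Mthfd2, the mitochondrial methylene-tetrahydrofolate dehydrogenase (chr6:83305704-83326011, minus strand), had 118, 113, 117 and 119 CPM at P1, 143, 145, 146 and 142 at P3 and 125, 127, 112 and 109 at P7. The P1 and P7 libraries overlapped, and the log2 difference of 0.016 (SE 0.07, adjusted p = 0.85) has an approximate 95% interval of -0.12 to 0.15. It did rise from P1 to P3, by 0.30 on the log2 scale (adjusted p = 0.00253), and fell again to P5, with a log2 fold change of -0.21 (adjusted p = 0.0312).

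Most of the fall lay after P3. From P1 to P3, 3 genes fell (Rrm2, Tk1 and Shmt1) and 2 rose (Ctps and Mthfd2), beside 33.4% of all genes that changed in either direction, and none was called, beside 8.98%. This count of 5 became 3 without replicate 2 of P1 or without replicate 2 of P3. From P3 to P5 all 9 fell, beside 15.3% of all genes, each by less than 2-fold, which 3.89% of all genes exceeded in either direction. The calls of Ctps and Mthfd2 in that step were near the threshold, and with no filter on low counts both were lost (adjusted p = 0.0838 and 0.0769 by edgeR), as with a replicate block (0.0577 and 0.0502). Without a single P3 or P5 library, either or both were lost in all 8 fits, and Dut was lost without replicate 1 of P3 or replicate 2 or 4 of P5. From P5 to P7, 6 fell, all except Dut, Ctps and Mthfd2, beside 9.10%. Only Tk1 exceeded 2-fold in that step, beside 2.28%, a count that became 2 without replicate 2 or 4 of P5 or replicate 2 of P7. Without replicate 1 of P5, 1 gene exceeded 2-fold from P3 to P5. Against P3, the P7 libraries were lower for 8 of the 9 genes, with Ctps the exception (-0.14, adjusted p = 0.0942), beside 26.5% of all genes. The same 6 genes as against P1 exceeded 2-fold, beside 7.41%, and they ranged from -1.11 for Rrm2 to -2.16 for Tk1.

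The order of the levels changed with passaging. Per kilobase of exon, Rrm2 was highest at P1 with 88.4 ± 7.58 CPM (SD, n = 4), followed by Rrm1 with 74.7 ± 4.20, Mthfd2 with 56.5 ± 1.33, Tk1 with 49.4 ± 2.29 and Ctps with 36.9 ± 0.931. The lowest were Dut with 17.03 ± 1.06 and then Dck, Tyms and Shmt1 between 10.1 and 12.2, each overlapping its neighbour. At P7, Mthfd2 was highest with 57.2 ± 4.42 CPM per kilobase, followed by Ctps with 44.9 ± 1.65, Rrm2 with 33.5 ± 2.71, Rrm1 with 22.1 ± 1.21 and Dut with 10.2 ± 1.33. Tk1 had dropped to 6.53 ± 1.55, with a mean still above that of Tyms (3.99 ± 0.507). The ranges of Tk1 and Tyms overlapped, at 4.23 to 7.58 and 3.39 to 4.63. Shmt1 was lowest with 2.23 ± 0.361. Among neighbours at P7, only Tk1 and Tyms, and Tyms and Dck, overlapped.

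The genes whose log2 CPM over the 16 passage libraries was most like that of a member, by Pearson's r among 9424 genes, were taken as a description. For Rrm1 they were Prc1, Prr11 and Kif23, with r of at least 0.993, and for Rrm2 G3bp1, Ppih and Cdc45, with r of 0.987. For Tyms they were Tfdp1, Prim1 and Nasp, for Tk1 H2afz, Chtf18 and Aurkb, for Dut Nxt1, Ptma and Rpa2, for Dck Dtl, Tmpo and Mtbp and for Shmt1 Chtf18, Ccnf and Uhrf1, with r between 0.964 and 0.994. Prc1, Kif23 and Aurkb act in mitosis, and Cdc45, Prim1 and Rpa2 in DNA replication. For Ctps the nearest genes were Nars, Mmachc and Mark3, with r from 0.913 to 0.929, and for Mthfd2 Arl6ip1, Yars and Lars, with r from 0.839 to 0.895. Nars, Yars and Lars encode aminoacyl-tRNA synthetases, which charge tRNAs with amino acids. These libraries share the 4 passages, so any genes that change steadily with passage have a high r. Among the 9 genes, r over the 16 libraries was 0.83 to 0.98 for pairs of the 7 that fell. For deviations from the passage means, which passage does not set, r of the same pairs was -0.12 to 0.77, with Tk1 and Dut highest.

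Several of these enzymes have a partner with the same or a related reaction, and 6 such pairs, chosen after their values were seen, were compared as log2 ratios of CPM per kilobase within a library. Tk1 exceeded Tk2, the mitochondrial thymidine kinase, at P1, with a log2 ratio of 3.59 ± 0.27 (SD, n = 4), and was below it at P7, at -0.46 ± 0.41. The 4 libraries of each passage did not overlap (two-sided exact permutation p = 0.0286, which is the least that 4 against 4 libraries can give). The Tk1 counts fell while Tk2 rose, from 11.8, 9.38, 7.79 and 10.7 to 21.5, 22.3, 18.98 and 21.2 CPM, by 1.08 (SE 0.12, adjusted p = 2.97e-07). The ratio of Rrm2 to Rrm2b, the small subunit that p53 induces and that serves resting cells, went from 5.20 ± 0.26 to 3.14 ± 0.47 (exact permutation p = 0.0286). Rrm2b itself rose by 0.66 (adjusted p = 0.00422) from P1 to P7, with libraries that overlapped, at 8.27 to 15.1 and 13.5 to 23.2 CPM, and from P3 to P7 its change of 0.17 did not pass (adjusted p = 0.461).

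The cytosolic Shmt1 fell against the mitochondrial Shmt2, from -3.46 ± 0.28 to -4.82 ± 0.083 (exact permutation p = 0.0286), although Shmt2 also fell (log2 fold change -0.79, adjusted p = 1.26e-07). Shmt1 was the minor form throughout. Mthfd2 fell against Mthfd2l, a second mitochondrial dehydrogenase of the folate cycle, from 4.03 ± 0.12 to 3.54 ± 0.14 (exact permutation p = 0.0286), and Mthfd2l rose by 0.51 (adjusted p = 0.00211). Ctps against Ctps2, the other CTP synthase, was at 2.88 ± 0.12 at P1 and 3.15 ± 0.16 at P7, with overlap (exact permutation p = 0.0571). Within ribonucleotide reductase, the ratio of Rrm1 to Rrm2 was -0.24 ± 0.078 at P1, 0.12 ± 0.19 at P3 and -0.60 ± 0.10 at P7, lower at P7 than at P1 in all libraries (exact permutation p = 0.0286). From P3 to P7 the same 5 ratios fell without overlap (exact permutation p = 0.0286 each), and Ctps against Ctps2 did not pass (p = 0.0857, exact permutation). Adjusted over the 6 pairs, the 5 ratios at the smallest p have a Benjamini-Hochberg value of 0.0343.

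**Figure D2:**
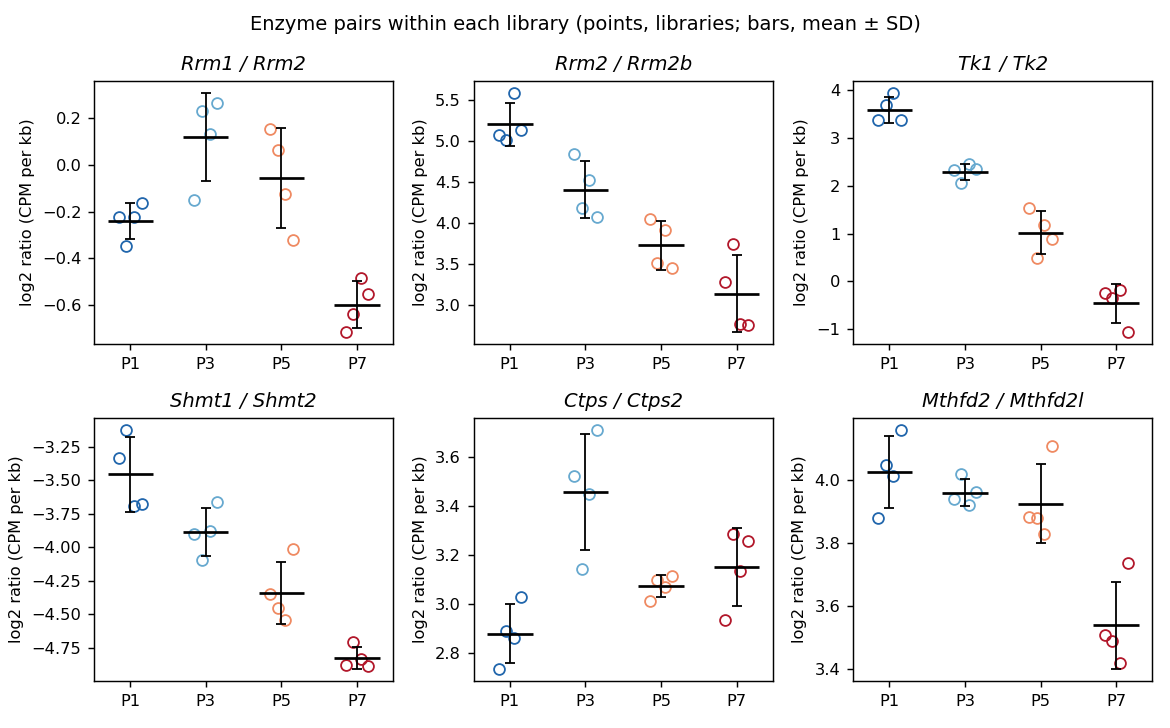
Log2 ratio of CPM per kilobase for 6 enzyme pairs within each library, by passage; open points are the 4 libraries and bars give the mean ± SD. The ratio of Tk1 to Tk2 passes from above 3.3 in every P1 library to below 0 in every P7 library.

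Other enzymes of the pathway, from lists that hold 54 genes beside the 9 members, were tested in the same fits. Of the 53 that could be tested from P1 to P7, 29 fell and 13 rose, with 6 called lower and 2 called higher, and their median was -0.31. Among the 6 called lower were Slc19a1, the folate carrier (-1.25), Cad, which starts pyrimidine synthesis (-1.23), Pfas (-1.21) and Ppat (-1.20) of purine synthesis, and Mthfd1l (-1.11), a mitochondrial folate enzyme. Ppat overlaps a gene on the other strand, so its counts are less certain. The 2 called higher were Tk2 and Dguok (1.17), the kinases of mitochondrial deoxynucleoside salvage. By list, 10 of 16 folate cycle genes fell and 3 rose, 10 of 12 genes of de novo purine synthesis fell and 1 rose, and 3 of 4 genes of de novo pyrimidine synthesis fell. Among 11 tested deoxynucleotide kinases and deaminases, 3 fell and 6 rose. As a reference for DNA replication, all 6 MCM helicase subunits fell, from -2.04 for Mcm7 to -3.17 for Mcm5.

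E2f4 overexpression raised 7 of the 9 genes, all except Dck and Mthfd2, and 3 of them, Shmt1, Tk1 and Dut, by more than 2-fold. Of all 13199 genes tested, 28.9% rose and 7.69% were called higher. The median of the 9 genes was 0.73. Shmt1 was at 8.73 and 5.65 CPM with the vector and 23.2 and 25.3 in E2f4_OE, a log2 fold change of 1.73 (SE 0.19, adjusted p = 4.56e-05). Tk1 was at 22.00 and 26.97 CPM with the vector and 65.1 and 67.4 in E2f4_OE, a log2 fold change of 1.44 (SE 0.13, adjusted p = 1.80e-05). Dut went from 27.8 and 30.9 to 63.8 and 65.8 CPM and rose, with a log2 fold change of 1.14 (SE 0.12, adjusted p = 3.32e-05). The 2 vector libraries of Shmt1 lay further apart, relative to their mean, than those of the other members. With 2 libraries a group, 8 members were higher in both E2f4_OE libraries, beside 41.2% of all genes, and Mthfd2 was lower in both, beside 40.3%. Reads assigned to no gene made up 7.89% and 7.50% of the E2f4_OE libraries and 12.9% and 12.3% of the vector libraries, and the part of this difference in the result was not tested.

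Smaller rises were found for Tyms, Rrm2, Rrm1 and Ctps. In the vector and E2f4_OE libraries, Tyms was at 28.3 and 26.9 and at 47.6 and 49.3 CPM, and Rrm2 at 151 and 149 and at 254 and 242. Rrm1 was at 257 and 227 and at 346 and 333 CPM, and Ctps at 172 and 169 and at 244 and 234. All 4 were higher in both E2f4_OE libraries. On the log2 scale, Tyms rose by 0.81 (adjusted p = 0.000223), Rrm2 by 0.73 (adjusted p = 0.000177), Rrm1 by 0.49 (adjusted p = 0.00254) and Ctps by 0.49 (adjusted p = 0.00194). Dck, at 47.5 and 41.3 and 51.4 and 49.7 CPM, differed by 0.19 (adjusted p = 0.204). Mthfd2, at 165 and 155 and 146 and 145 CPM, differed by -0.14 (adjusted p = 0.276), and their approximate 95% intervals were -0.049 to 0.42 and -0.34 to 0.065. Rrm2b was called lower, from 28.2 and 23.4 to 9.31 and 6.98 CPM (log2 fold change -1.66, adjusted p = 3.58e-05), opposite to Rrm2. Beyond the members, 32 of 54 pathway genes rose and 7 fell, and all 6 MCM genes rose, by 0.39 to 1.57.

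E2f4 knockdown lowered 6 of the 9 genes, each by less than 2-fold, beside 7.79% of the 12310 genes tested. The RNA-seq libraries hold only 1 E2f4 hairpin, so lower E2f4 and an off-target effect of sh1 cannot be told apart. Dut had the lowest adjusted p and fell from 43.6, 44.2 and 44.2 CPM with nt to 28.04, 30.1 and 32.4 with sh1, a log2 fold change of -0.55 (SE 0.092, adjusted p = 0.000933), and the libraries did not overlap. Shmt1 fell by 0.69 on the log2 scale (adjusted p = 0.0261), from 9.52, 7.19 and 9.68 to 5.46, 4.60 and 6.24 CPM. Tk1 was at 33.9, 30.2 and 33.4 CPM with nt and 24.8, 24.5 and 28.3 with sh1, and Dck at 28.4, 27.9 and 33.8 and 21.3, 24.6 and 16.5, both without overlap. The log2 fold changes were -0.53 for Dck, -0.33 for Tk1, -0.28 for Ctps and -0.22 for Rrm1, with adjusted p between 0.00919 and 0.0357. Rrm2 was at 101, 100.4 and 105 CPM with nt and 101, 113 and 99.2 with sh1 (log2 difference 0.027, adjusted p = 0.837, approximate 95% interval -0.11 to 0.17). Neither Rrm2 nor Tyms (-0.26, adjusted p = 0.153) nor Mthfd2 (0.033, adjusted p = 0.767) passed. The count of 6 became 3 without replicate 2 of sh1 and 2 without replicate 1 or replicate 3 of nt. Tk1 did not pass without replicate 1 or 2 of sh1 or any 1 of the nt libraries (adjusted p of 0.0585 to 0.139 by edgeR). Shmt1 did not pass without replicate 1 or 2 of sh1 or replicate 1 or 3 of nt (0.0514 to 0.111 by edgeR). Rrm1, Ctps and Dck were each lost in at least 1 such fit. Under DESeq2, Tk1 and Shmt1 did not pass (adjusted p = 0.0924 and 0.0694). Among the other pathway genes, 16 of 53 fell and none rose. The summed macrophage markers were at 5.71 to 10.5 CPM with nt and 14.2 to 20.7 with sh1, and the fibroblast markers at 30934 to 31910 and 23780 to 26210. The higher macrophage sum lay mostly in Csf1r (mean 4.38 CPM with nt, 10.2 with sh1) and Lyz2 (1.36 and 4.50). Cd68, C1qa and Ptprc had lower means with sh1, and Adgre1, C1qb and Tyrobp higher means. Among fibroblast markers, Col1a1, Col1a2 and Col3a1 were lower, Pdgfrb was level, and Dcn, Lum, Pdgfra and Thy1 were higher. The part of these markers in the result was not tested. Values of the 2 E2f4 experiments come from separate fits with cells of different passages, and the difference between them was not tested.

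**Figure D3:**
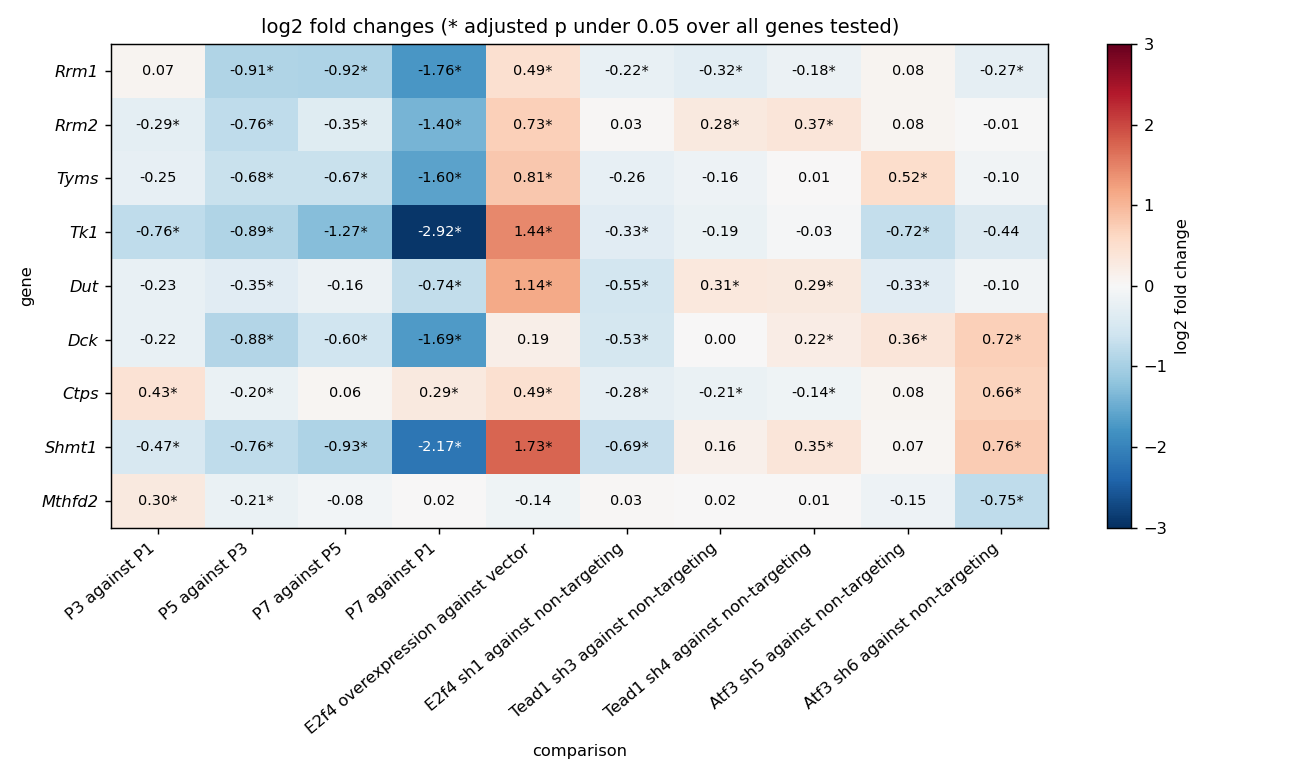
Log2 fold changes of the 9 genes (rows) in 10 comparisons (columns), coloured from blue (lower) to red (higher), with the value printed in each cell and a star where the edgeR adjusted p was under 0.05. The column of P7 against P1 is mostly blue and that of E2f4 overexpression mostly red, while the Tead1 and Atf3 columns mix both signs.

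Tead1 knockdown moved the 2 reductase subunits in opposite directions. Rrm1 was at 214, 232 and 213 CPM with nt, 179, 169 and 179 with sh3 and 197, 186 and 198 with sh4, and fell by log2 fold changes of -0.32 (adjusted p = 7.00e-07) and -0.18 (adjusted p = 0.00181). Rrm2 was at 122, 114 and 125 CPM with nt, 145, 148 and 146 with sh3 and 164, 145 and 155 with sh4, and rose by log2 fold changes of 0.28 (adjusted p = 2.00e-05) and 0.37 (adjusted p = 4.97e-07). The libraries of either hairpin overlapped those of nt for neither gene. The log2 ratio of Rrm1 to Rrm2 per kilobase was -0.10 to 0.15 with nt, -0.69 to -0.57 with sh3 and -0.61 to -0.52 with sh4.

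With sh3, 2 genes rose (Rrm2, and Dut by a log2 fold change of 0.31) and 2 fell (Rrm1, and Ctps by -0.21), beside 17.6% and 17.7% of 13012 genes. With sh4, 4 rose (Rrm2, Dut by 0.29, Shmt1 by 0.35 and Dck by 0.22) and 2 fell (Rrm1, and Ctps by -0.14), beside 14.4% and 14.7%. Dut was at 41.6, 43.8 and 43.5 CPM with nt, 53.5, 53.9 and 52.3 with sh3 and 52.7, 56.6 and 47.9 with sh4, and Ctps at 180.2, 176 and 162, then 155, 147 and 148, and 156, 154 and 161. Every library of either hairpin was above the nt libraries for Dut and below them for Ctps. Of the other 53 pathway genes, 11 rose and 13 fell with sh3, and 6 rose and 11 fell with sh4. No member exceeded 2-fold, and the 6 genes of sh4 became 3 without replicate 1 of sh4. Compared directly, sh4 and sh3 differed for 0 of the 9 genes by edgeR, for 3 at an unadjusted p under 0.05 and for 1 by DESeq2, beside 7.37% of all genes. Both hairpins are compared with the same nt libraries. Mthfd2 differed by 0.018 with sh3 and 0.0076 with sh4, with approximate 95% intervals of -0.073 to 0.11 and -0.083 to 0.10.

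The 2 Atf3 hairpins are compared with the same nt libraries, and set against each other they differed for 6 of the 9 genes, beside 52.6% of all genes, so that the share among the members was near that of all genes. Replicate 3 of sh5 stood apart from the other sh5 libraries, at 59.4 and 63.7 in chi-square of the counts per degree of freedom, beside 3.29 between replicates 1 and 2. With sh5, 2 genes rose and 2 fell, beside 17.7% and 18.1% of 13345 genes. Tyms rose from 15.9, 17.01 and 14.6 CPM with nt to 23.2, 18.9 and 25.9 (log2 fold change 0.52, adjusted p = 0.0167) and Dck by 0.36 (adjusted p = 0.0254). Tk1 fell from 14.6, 14.98 and 16.1 to 11.00, 11.00 and 5.64 CPM (log2 fold change -0.72, adjusted p = 0.0239), with replicate 3 of sh5 the lowest, and Dut fell by 0.33 on the log2 scale (adjusted p = 0.0293). This count of 4 became 1 without replicate 2 of nt, 0 by edgeR without replicate 3 of nt, where 4 had an unadjusted p under 0.05, and 1 in a fit of the sh5 and nt libraries alone. Without replicate 3 of sh5, Tk1 was at -0.44 and still passed, Dut at -0.22 no longer did (adjusted p = 0.0512), and Mthfd2 at -0.24 did (adjusted p = 0.00916). The summed fibroblast markers were at 21511 to 34244 CPM with sh5, below all nt libraries (35554 to 37408). Col1a1 differed most (mean 16705 CPM with nt, 11524 with sh5). Dcn, Lum and Pdgfra had higher means with sh5, and the rest of the list lower means. The macrophage markers summed to 15.3 to 23.5 CPM, above nt (14.00 to 15.2), mostly through Csf1r (mean 5.73 with nt, 9.68 with sh5). Adgre1, C1qa, C1qb and Tyrobp had lower means with sh5, and the rest higher means. Of the reads, 12.5% to 16.8% were assigned to no gene with sh5, the most in replicate 3, against 10.5% to 10.9% with nt. The part of these in the result was not tested.

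With sh6, 3 genes rose and 2 fell, beside 23.8% and 26.0% of all genes. Mthfd2 was at 79.6, 74.5 and 78.05 CPM with nt, 64.3, 64.6 and 80.01 with sh5 and 45.3, 45.01 and 47.4 with sh6. Only the sh6 libraries stood clear of nt, with a log2 fold change of -0.75 (SE 0.095, adjusted p = 9.24e-05). Mthfd2 was also lower with sh6 than with sh5, with a log2 difference of -0.60. Ctps was at 85.1, 90.8 and 91.8 CPM with nt, 94.3, 94.7 and 94.5 with sh5 and 144, 137 and 142 with sh6, and Dck at 16.9, 17.4 and 16.3, then 20.3, 20.1 and 24.8, and 26.8, 29.4 and 27.5. The sh6 libraries of both were above all others of the experiment. On the log2 scale, Shmt1 rose by 0.76, Dck by 0.72 and Ctps by 0.66, while Rrm1 fell by 0.27 (adjusted p = 0.0389). The call of Rrm1 was lost with no filter on low counts (adjusted p = 0.0502 by edgeR) and without replicate 1 or 2 of sh6 or any 1 of the nt libraries (adjusted p of 0.0686 to 0.161 by edgeR). Tk1, at -0.44 with sh6, did not pass (adjusted p = 0.107), but it passed without replicate 3 of sh5, at -0.43 (adjusted p = 0.00152), and in a fit of the sh6 and nt libraries alone, at -0.44 (adjusted p = 0.00228). Of the related lists, all 3 serine synthesis genes fell with sh6, between -0.84 and -1.03, and the mitochondrial folate enzymes Aldh1l2 (-2.69) and Mthfd1l (-1.33) were called lower. Tk2 was also called lower (-2.08), whereas 9 of 12 genes of de novo purine synthesis rose, with Ppat at 1.56. E2f4 rose by 0.67 (adjusted p = 0.000311) with sh6, and the summed fibroblast markers were at 13612 to 14602 CPM, against 35554 to 37408 with nt. Of these markers only Thy1 had a higher mean with sh6 (1196 CPM, against 1129 with nt). The part of E2f4 or of the markers in the changes with sh6 was not tested.

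**Figure D4:**
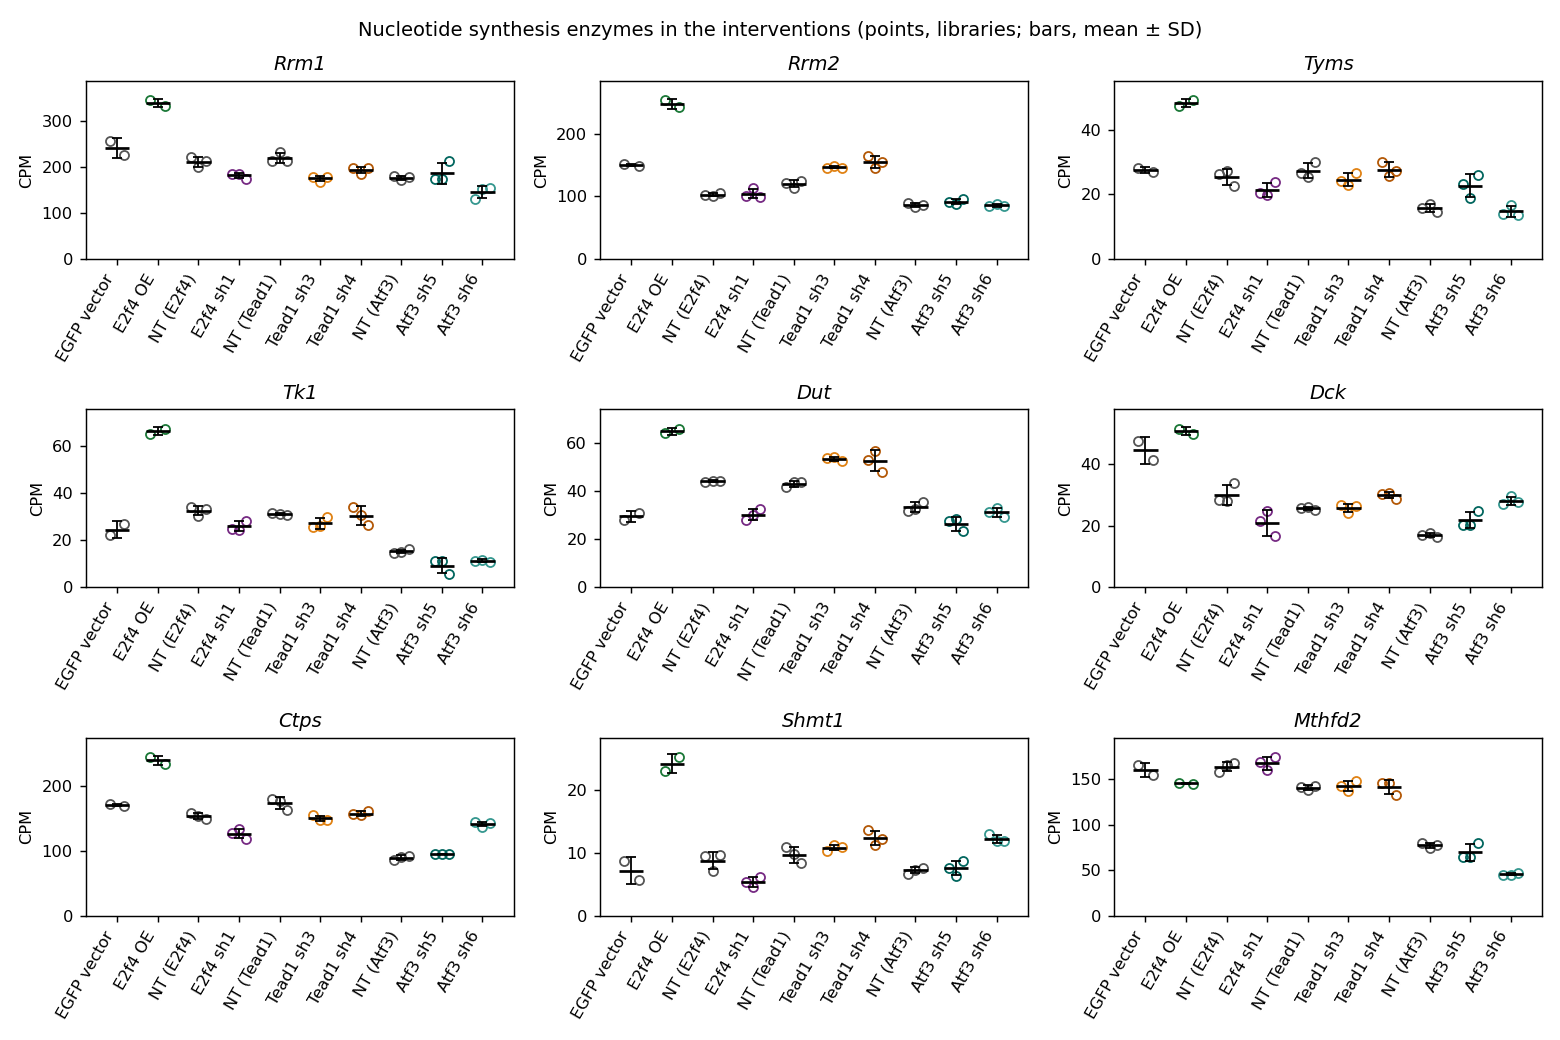
CPM of the 9 genes in the E2f4, Tead1 and Atf3 experiments, with a panel for each gene and a linear axis from 0; open points are libraries (2 a group for overexpression, 3 otherwise), bars give the mean ± SD, and NT marks the non-targeting hairpin of each experiment. Tk1 lies at 65.1 to 67.4 CPM with E2f4 overexpression, above every other intervention library.

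Chromatin at the start sites was compared through the ATAC-seq peaks, which mark DNA open to the Tn5 transposase. The lists hold no read counts and the depth is unknown, so the strength of the strongest peak within 1000 bases of a start site was given as its percentile among all peaks of the sample. Every member had such a peak in all 13 samples. Of 14470 genes with one, 23.3% had a lower percentile at P7 than at P1 and 7.55% a higher one (limma, adjusted p under 0.05), with a median difference of -1.21 percentile points. The lists differed in length, with 168982 to 186562 peaks in the P1 samples, 142384 to 155681 at P3 and 200376 to 231558 at P7, and a percentile depends on how many weaker peaks a list holds, so a lower percentile need not be a weaker peak. The part of the list lengths in the differences was not tested. Among the 9 members, 3 had a lower percentile, which were Tk1, Rrm2 and Mthfd2.

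Tk1 was at percentiles 64.2, 68.2, 60.6 and 74.4 in the P1 samples and 50.7, 59.1 and 47.6 at P7, a difference of -14.4 points (SE 3.27, adjusted p = 0.00925, limma) without overlap. Its peak had the lowest mean percentile of the 9 at each passage. Rrm2 went from 93.7, 94.5, 94.8 and 93.6 to 87.6, 92.00 and 88.7, a difference of -4.72 points (adjusted p = 0.014, limma), and without replicate 1 of P7 this call was lost. Mthfd2 went from 97.3, 97.3, 98.2 and 98.5 to 93.6, 93.2 and 93.9, a difference of -4.23 points (adjusted p = 0.000296, limma), whereas its transcript did not pass between these passages. The peaks of Rrm1, at 92.8, 94.2, 91.01 and 92.4 and 94.4, 95.3 and 93.9, and of Shmt1, at 95.7, 95.02, 95.2 and 96.5 and 97.3, 96.7 and 97.2, did not pass (adjusted p = 0.448 and 0.074, limma), nor did those of Tyms, Dut, Dck and Ctps. With 4 samples against 3, an exact permutation test of 1 gene cannot go below p = 0.0571. Measured as log2 fold enrichment in place of the percentile, the 3 calls were lost, Rrm2 changed sign, and Rrm1 and Shmt1 passed as higher at P7, so these 3 differences rest on the use of percentiles.

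**Figure D5:**
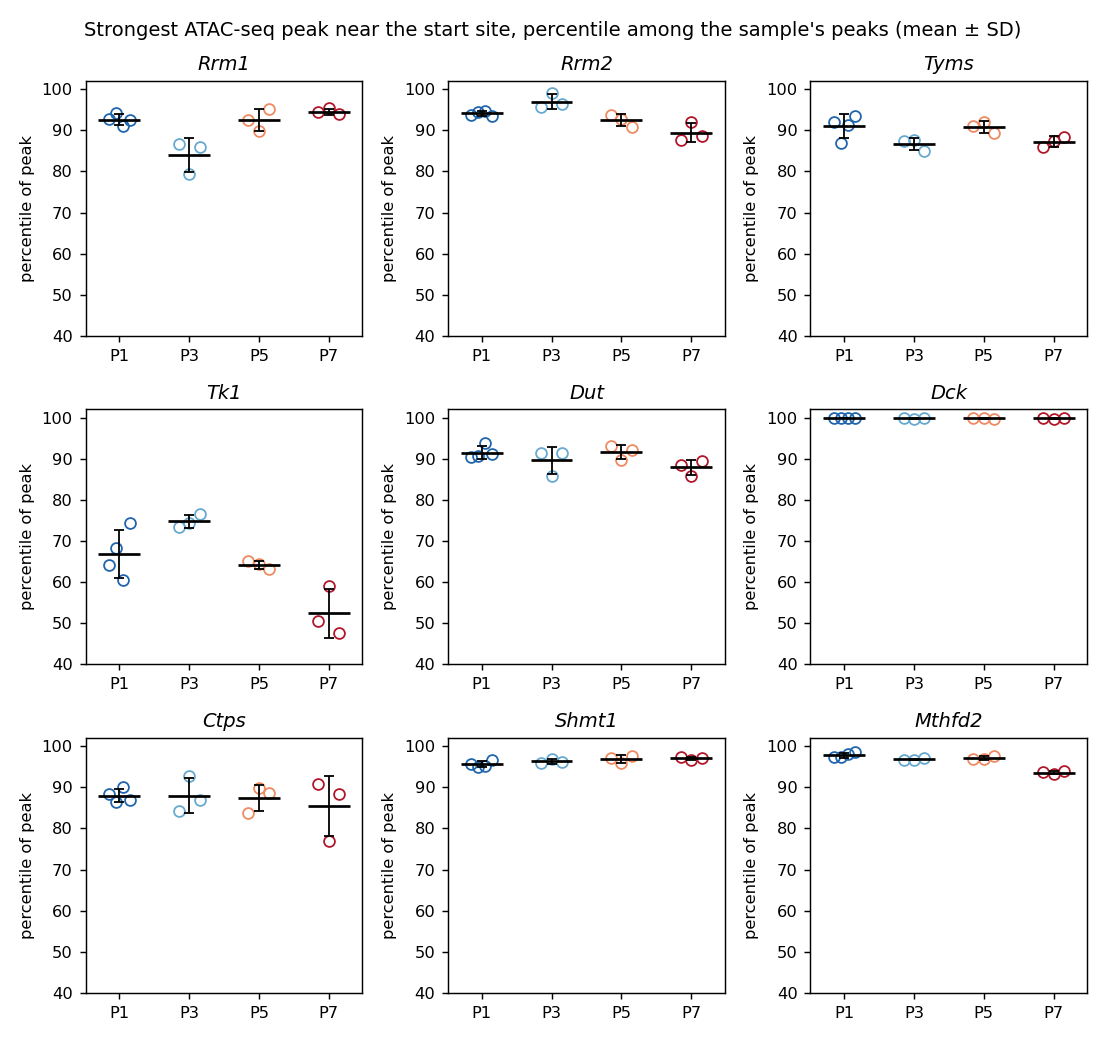
Percentile of the strongest ATAC-seq peak within 1000 bases of the start site of each gene, among all peaks of the same sample, by passage; open points are the 4 P1 and 3 P3, P5 and P7 samples, with mean ± SD. Tk1 is lowest at P7, between 47.6 and 59.1, while Dck lies above 99.7 in every sample.

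The promoters of 4 members are shown because they carry the sites that an E2F or CCAAT-binding factor could read, with a member whose transcript did not pass from P1 to P7 (Mthfd2) beside 3 that fell. RefSeq windows of GRCm38.p6, from 250 bases before to 50 after the start, were searched on both strands for the E2F form TTCCCGC and 3 variants, which were TTGGCGC, the form TTCGCGC and lastly TTGCCGC, for CCAAT, for the TEAD form GGAATG and for the AP-1 form TGACTCA with its other form TGAGTCA. The form TTGGCGC can overlap a reversed CCAAT box, which did not occur in these windows. Capitals mark E2F and CCAAT matches in the 250 bases before the start, written 5′ to 3′ on the strand of the gene.

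Rrm1 (chr7:102441445-102441694, plus strand): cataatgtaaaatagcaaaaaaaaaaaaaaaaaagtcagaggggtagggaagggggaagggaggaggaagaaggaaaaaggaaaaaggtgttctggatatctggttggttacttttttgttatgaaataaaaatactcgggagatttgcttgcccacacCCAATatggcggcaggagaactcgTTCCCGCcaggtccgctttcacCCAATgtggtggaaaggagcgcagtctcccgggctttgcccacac

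Rrm2 (chr12:24708004-24708253, plus strand): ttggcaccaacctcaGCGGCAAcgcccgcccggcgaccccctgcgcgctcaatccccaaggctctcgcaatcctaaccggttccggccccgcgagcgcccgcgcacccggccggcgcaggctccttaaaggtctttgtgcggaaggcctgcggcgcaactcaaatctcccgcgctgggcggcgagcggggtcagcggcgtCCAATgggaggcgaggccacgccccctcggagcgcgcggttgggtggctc

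Shmt1 (chr11:60811266-60811515, minus strand): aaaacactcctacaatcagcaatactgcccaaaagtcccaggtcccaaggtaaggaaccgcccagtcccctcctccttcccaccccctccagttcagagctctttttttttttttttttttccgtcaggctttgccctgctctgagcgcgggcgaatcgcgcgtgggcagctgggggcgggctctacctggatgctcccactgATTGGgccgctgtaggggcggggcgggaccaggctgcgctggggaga

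Mthfd2 (chr6:83317605-83317854, minus strand): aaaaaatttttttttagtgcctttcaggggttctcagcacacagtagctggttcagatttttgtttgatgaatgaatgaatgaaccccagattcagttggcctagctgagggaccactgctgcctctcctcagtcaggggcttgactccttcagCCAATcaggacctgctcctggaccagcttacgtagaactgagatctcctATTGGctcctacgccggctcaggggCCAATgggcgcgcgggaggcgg

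Rrm1 holds an E2F match 67 bases before the start, between CCAAT boxes at 91 and 45. In Rrm2, an E2F match lies 235 bases before the start, on the reverse strand, and a CCAAT box at 50. Shmt1 has a reversed CCAAT box 47 bases before the start, and its E2F match lies after the start, from base 25, within cggcctctgcGCGCCAAgtttgggttt (chr11:60811225-60811251, minus strand). Mthfd2 has no E2F match and has CCAAT boxes at 96, 47 and 22. Ctps has 2 windows, of which 1 holds an E2F match, and the windows of Tk1, Tyms, Dut and Dck held none of the 4 motifs. Dut has 2 annotated start sites, and only 1 window of it was searched. The annotated span of Mthfd2 begins at chr6:83326011 on its strand, before the searched start at 83317604, and no window at that end was searched. In all, 4 of the 10 windows of the 9 genes held an E2F match, beside 9.57% of all 32851 windows, and 4 held a CCAAT box, beside 37.4%. No member window held the TEAD form (14.7% of all windows) or the AP-1 forms (5.20%). A match is only a run of letters, and its absence says nothing about a factor's binding.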

How the data were processed

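RNA-seq, ATAC-seq and RRBS of mouse skin fibroblasts were deposited. The RNA-seq files held counts per gene that the authors made with Trimmomatic 0.39, HISAT2 2.2.1 and HTSeq 0.12.4, the last run without strand. The ATAC-seq files held peaks that the authors called per sample on mm10 with Bowtie2 2.3.5.1 and MACS2, with a pileup signal, a fold enrichment, and −log10 p and q values, all as deposited. RRBS was not used here. The members and gene lists were chosen with earlier results of these data known.

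Each of the 5 RNA-seq experiments was fitted on all its groups with edgeR 4.0.16 in R 4.3.3 (filterByExpr, TMM, quasi-likelihood test, Benjamini-Hochberg over all genes), 12310 to 13442 genes being tested. The SE is the fitted log2 fold change divided by the root of its F statistic, and the 95% interval is ±1.96 SE. All replicate pairs differed by more than sampling noise (chi-square per degree of freedom of at least 2.75), and totals of 9147324 to 27552949 counts set the precision of low genes such as Shmt1 and Atf3. Lines of the deposited count files that name no gene, present for the interventions and holding 7.50% to 16.8% of a library, were left out.

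Promoter peaks were ranked within a sample by −log10 p, and the percentile of the strongest within 1000 bases of a RefSeq start site was compared with limma 3.58.1 over all 13 samples. Pair ratios used an exact permutation test (scipy 1.17.1). Levels per kilobase used RefSeq exon lengths. All 9 members, the targeted genes and pathway genes called from P1 to P7 or in at least 2 comparisons were named, except 1 that is not reported here, and the pairs and their partners were chosen after their values were seen. Whether a replicate number shared between groups pairs the libraries is not stated, and the reported fits did not pair them. Same-numbered libraries deviated together, at a correlation over 0.1, in 16 of 47 pairs. Differently numbered libraries were not compared, so this count cannot show whether libraries were paired. Alternatives were DESeq2 1.42.0, its size factors, other filters, fits of 2 groups, a replicate block, each library left out, a window of 500 bases, a −log10 q of at least 5 and fold enrichment. P7 against P3 and the pair ratios without single libraries were added after the data were seen.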

Additional observations from a re-analysis of the deposited data

Results flagged for a closer look

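In the P3 libraries, Dck in replicate 3 lay apart from the other 3 libraries, at 37.7 CPM against 29.6 to 30.5, with a gap of 0.892 of the whole range. It was the only one of 45 groups of 4 RNA-seq libraries or ATAC-seq samples that passed Dixon's 95% limit, which chance passes in about 1 of 20 groups.

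Both Atf3 hairpins were set against the same non-targeting libraries, and sh6 and sh5 differed by edgeR's test of the difference itself for 6 of the 9 genes, beside 52.6% of all genes. Relative to sh5, Rrm1 was at -0.35, Tyms at -0.62 and Mthfd2 at -0.60 with sh6 on the log2 scale. Dck was at 0.36, Ctps at 0.58 and Shmt1 at 0.69. Without replicate 3 of sh5, the library that stood apart, Rrm1 was at -0.27, Tyms at -0.53, Mthfd2 at -0.51, Dck at 0.45, Ctps at 0.56 and Shmt1 at 0.78.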

How the results depend on the processing

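Under the other settings, 694 single-gene results kept their direction and side of the threshold, 19 lost and 11 gained a call, and 11 changed sign. All sign changes below are of values that did not pass in the reported fit, except the promoter peak of Rrm2. Mthfd2 from P1 to P7 was -0.012 with at least 10 counts in every library, Dck with Tead1 sh3 was -0.00030 with no filter, and Rrm2 with Atf3 sh6 was 0.0031 under DESeq2, 0.0026 with its size factors and 0.0013 with no filter. Measured as log2 fold enrichment, the promoter peaks of Rrm2 (0.13), Tyms (0.20), Dut (0.12), Dck (0.25) and Ctps (0.016) were higher at P7. Ctps against Ctps2 was -0.30 from P3 to P7. By the exact test 0 of 3 promoter peaks passed, since 4 against 3 samples cannot go below p = 0.0571. With Tead1 sh4 against sh3, 1 gene passed under DESeq2, without a filter, with at least 10 counts and with the 2 groups alone, and with Atf3 sh5, 1 passed with the 2 groups alone.

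Leaving out 1 library at a time, the number of genes that passed was 3 to 6 for P3 against P1, 2 to 7 for E2f4 sh1, 3 to 6 for Tead1 sh4, 0 to 1 for Tead1 sh4 against sh3 and 0 to 4 for Atf3 sh5 (0 by edgeR, with 4 at an unadjusted p under 0.05), and the number over 2-fold was 0 to 1 from P3 to P5 and 1 to 2 from P5 to P7. For uncalled values that changed sign, the ranges were -5.22 to 1.68 percentile points for the Ctps peak, and on the log2 scale -0.017 to 0.058 for Mthfd2 from P1 to P7, -0.022 to 0.066 for Rrm2 with E2f4 sh1, -0.020 to 0.047 for Dck and -0.012 to 0.046 for Mthfd2 with Tead1 sh3, -0.054 to 0.083 for Tyms, -0.12 to 0.068 for Tk1 and -0.013 to 0.050 for Mthfd2 with Tead1 sh4, -0.079 to 0.038 for Dut and -0.038 to 0.032 for Mthfd2 between sh4 and sh3, -0.016 to 0.18 for Shmt1 with Atf3 sh5 and -0.036 to 0.012 for Rrm2 with Atf3 sh6. The cause of these shifts was not tested. The 5 pair ratios all lost the threshold, as 4 against 3 libraries cannot reach it.

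Whether replicate numbers pair the libraries is not stated. With a replicate block 7 in place of 9 genes fell from P3 to P5, Ctps (adjusted p = 0.0577) and Mthfd2 (adjusted p = 0.0502) being lost by edgeR. The block moved no other count of genes by over 1.5 times. Depth limits Shmt1 and Atf3 most, and the peak lists give no depth.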

Other observations

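Rrm2b and Tk2, the partners of Rrm2 and Tk1 in resting cells and mitochondria, were measured in the Atf3 libraries too, and their values were chosen after they were seen. Rrm2b was at 14.3 to 18.8 CPM with the non-targeting hairpin, 25.0 to 36.0 with sh5 and 24.9 to 33.6 with sh6, while Rrm2 lay between 83.4 and 95.5 CPM in all 9 libraries. Tk2 was at 21.3 to 24.3 CPM with the non-targeting hairpin, at 16.2 to 20.5 with sh5, where its log2 difference of -0.28 did not pass (edgeR adjusted p = 0.0949), and at 5.15 to 5.93 with sh6.

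At P3, the ATAC-seq peak of Rrm1 lay at percentiles 79.3 to 86.6, below every P1 and P7 sample, whereas its transcript was at 278 to 342 CPM at P3 and 276 to 313 at P1. For Rrm2, the P3 samples lay at percentiles 95.7 to 99.0, above every P1 and P7 sample. Measured as fold enrichment, the P3 samples of Rrm2 (7.48 to 8.16) were above those of P1 but overlapped P7 (6.42 to 8.75). Those of Rrm1 (5.61 to 7.47) were below every P1 and P7 sample by this measure too. By limma, the Rrm1 percentile at P3 differed from P1 by -8.63 points (adjusted p = 0.0202) and P7 from P3 by 10.6 (adjusted p = 0.0107). For Rrm2, P3 against P1 did not pass (2.85 points, adjusted p = 0.144), and P7 against P3 was at -7.56 (adjusted p = 0.00769). The P3 lists were the shortest, with 142384 to 155681 peaks, against 168982 to 186562 at P1 and 200376 to 231558 at P7, which changes what a percentile means, and the part of list length in these differences was not tested.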
